A study of Drosophila melanogaster with 12 samples.

Results

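The 34 genes described here carried only a CG number as their symbol in the platform annotation. Their transcript levels in cultured larval organs were higher with the steroid hormone 20-hydroxyecdysone (20E), both with and without a block of protein synthesis. Among them, CG11509 is listed by RefSeq as a synonym of the named gene br. A CG number is the identifier a Drosophila gene receives from the annotation of the genome before it is given a name. The members were chosen on these arrays, from the 4911 probe sets of 13966 that are assigned to a single gene with such a symbol. Their ratio of group means had to be at least 1.3 for 20E+cycloheximide over cycloheximide and for 20E over no hormone. In addition, every hormone array had to lie above every array of its control, and the highest group mean had to reach 50. CG11275 was left out beforehand, although its values met these limits. Each of the 34 genes was represented by 1 probe set.

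20E is the hormone whose pulses direct molting and metamorphosis. It binds a heterodimer of the nuclear receptors EcR and USP, which sits on target genes and switches their transcription. The first genes to respond include those for transcription factors such as the Broad-Complex, E74 and E75, and the proteins they encode go on to regulate a second tier of genes. Cycloheximide stalls translating ribosomes, so that a transcript that still accumulates with 20E in its presence does not need newly made protein, which is the classical criterion for a primary response. The drug is also known to stabilize some existing mRNAs, and a level seen with it is therefore set against cycloheximide alone.

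The arrays were Affymetrix Drosophila Genome Arrays, on which a probe set is a group of short probes for a transcript. Organs of partial blue gut w1118 larvae of the third instar, 8 animals to a well, were held in oxygenated Schneider's medium at 25 °C for 1 h and then treated for 6 h. There were 3 arrays for each of 4 groups: 5 µM 20E with 85 µM cycloheximide, 5 µM 20E, 85 µM cycloheximide, and medium with no hormone. The triplicates were harvested separately, so the p-values below measure the spread between harvests. The source label of the samples reads whole animal, whereas the protocol describes dissected organs pooled in a well. In such mixed tissue, fewer cells of a type and less RNA per cell cannot be told apart.

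The 12 arrays had median intensities from 114 to 118 on a linear scale, and between 15.7% and 17.5% of the values of an array lay under 50, where no detection call is given. The organs included salivary glands, whose 5 glue genes summed to between 33098 and 37776 in 20E+cycloheximide organs, between 32240 and 35270 in 20E organs, between 33447 and 36744 in cycloheximide organs, and between 28696 and 39314 with no hormone. Among genes of 8 tissue marker lists that were matched by name to a single-gene probe set, none was called in either comparison with 20E (limma, adjusted p under 0.10 and at least 1.3-fold).

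Among the 34 members, the ratio of 20E+cycloheximide over cycloheximide ran from 1.33 to 2.52 with a median of 1.58, and that of 20E over no hormone ran from 1.31 to 3.44 with a median of 1.83. The larger ratio was that without cycloheximide for 23 members and that with cycloheximide for 11. At least 2-fold was reached by 4 members with cycloheximide present, by 13 without it and by 3 in both, namely CG10444, CG11034 and CG13116. Since these ratios chose the members, they describe the list and test nothing. By limma, 13 members were called higher with 20E+cycloheximide than with cycloheximide, where 0.68% of all probe sets were, and 29 with 20E than with no hormone, where 1.76% were; the rule used both contrasts, so nothing is read from these counts. The absence of overlap was likewise fixed by the rule, against 7.78% and 10.6% of all probe sets whose hormone arrays lay above all control arrays.

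**Figure D1:**
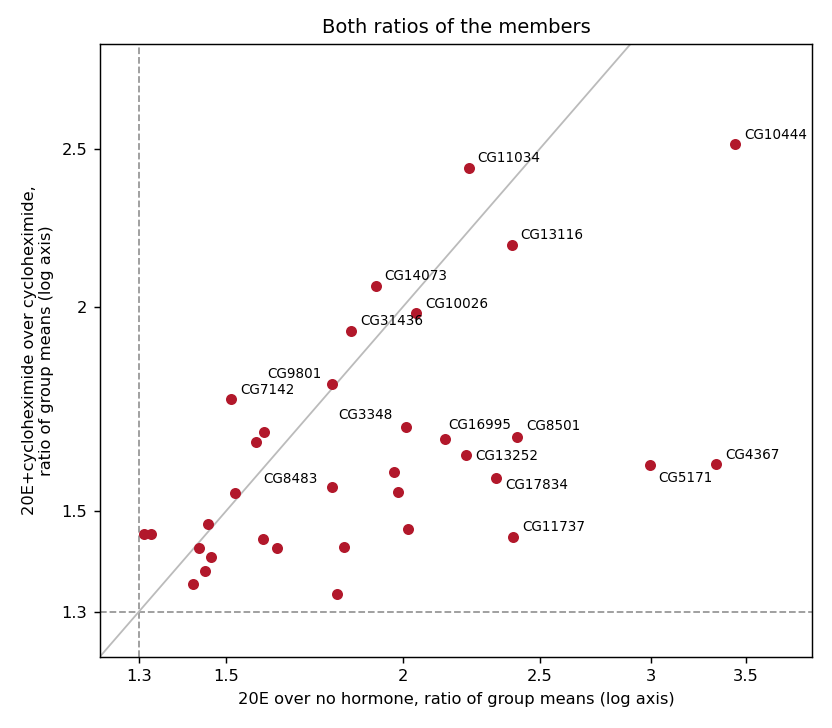
Ratio of group means for each of the 34 members on log axes, with 20E over no hormone across and 20E+cycloheximide over cycloheximide upward; dashed lines mark the limit of 1.3 and the grey line marks equal ratios. CG10444 lies at the top right with 2.52 and 3.44, while CG4367 and CG5171 lie far right of the line of equal ratios, with about 1.60 upward and 3.33 and 2.99 across.

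The limits cut through a continuous range of values. Just inside lay CG5805, with ratios of 1.45 with cycloheximide and 1.31 without, and CG11170, with 1.45 and 1.33. Just outside lay CG8031, at 1.33 and 1.29, and CG7702, at 1.29 and 1.37. The same limits were met by 35 of the 4911 CG-numbered probe sets before CG11275 was left out (0.713%), by 66 of 7531 single-gene probe sets with another symbol (0.876%), and by 116 of all 13966 (0.831%).

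A role is known with some certainty, mostly from the protein family, for 17 of the members. Of these, 4 encode transporters. CG10444, a sodium-dependent solute transporter of the SLC5 family, had the largest value of the smaller ratio. Its intensities were 36.4, 63.0 and 23.6 on the 20E+cycloheximide arrays against 17.3, 18.7 and 12.8 on the cycloheximide arrays, and 43.7, 82.2 and 54.6 with 20E against 22.4, 18.0 and 12.1 with no hormone. It was also a dim probe set, under 50 on 9 of 12 arrays, and its hormone arrays spread widely, from 23.6 to 63.0 with cycloheximide. The 3 probe sets whose log2 values over the 12 arrays were most like those of CG10444 were fbl (Pearson r = 0.960), a probe set shared by CG31381 and CG11089 (0.954), and CG33116 (0.950), itself a member. CG3036, of the SLC17 family of anion transporters, had ratios of 1.68 with cycloheximide and 1.59 without. CG1607, of the SLC7 amino acid transporters, had 1.58 and 1.97. CG5805, of the mitochondrial carrier family, was the member nearest the limit, under 50 on 9 of 12 arrays.

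The pair of CRAL-TRIO proteins, a family that binds small lipids in a hydrophobic pocket, differed in size of change. CG10026 read 264, 303 and 274 with 20E+cycloheximide against 153, 123 and 149 with cycloheximide, and 243, 258 and 242 with 20E against 149.7, 95.8 and 118 with no hormone. All 6 hormone arrays were above all 6 others, and its ratios of 1.98 and 2.04 were close to each other. CG3823 had ratios of 1.47 and 1.46.

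Of the members that encode secreted or chitin-binding proteins, both genes of the CAP family, which holds secreted cysteine-rich proteins, and a trypsin-like serine protease stood out for how they behaved with cycloheximide. CG16995, a CAP gene, read 122, 108 and 105 with 20E+cycloheximide against 69.1, 69.6 and 63.6 with cycloheximide, and 165, 170.0 and 150.2 with 20E against 74.5, 78.7 and 73.4 with no hormone. All 3 of its 20E arrays were above all 3 of its 20E+cycloheximide arrays. CG8483, the other CAP gene, showed the opposite order, with 1151, 1249 and 976 with 20E+cycloheximide against 863, 686 and 628 with cycloheximide, and 278, 497 and 342 with 20E against 264, 184 and 179 with no hormone. Here even the cycloheximide arrays without hormone were above all 20E arrays. CG7142, the serine protease, read 529, 537 and 567 with 20E+cycloheximide against 337, 293 and 299.9 with cycloheximide, and 319.9, 305 and 271 with 20E against 212, 200.0 and 181 with no hormone. Its 20E and cycloheximide arrays overlapped, and both lay between the other groups. CG10140, with chitin-binding domains of the peritrophin type, had ratios of 1.33 and 1.80.

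Among the enzymes, CG5171, of the trehalose-phosphatase family, had ratios of 1.60 with cycloheximide and 2.99 without. Its values were 1014, 1241 and 795 with 20E+cycloheximide against 786, 590.1 and 532 with cycloheximide, and 817, 1596 and 994 with 20E against 585, 309 and 245 with no hormone. The gap to the cycloheximide group was narrow, with the lowest 20E+cycloheximide array 1.01 times the highest cycloheximide array. CG31436 belongs to the ecdysteroid kinase-like family, and read 105, 166 and 94.4 with 20E+cycloheximide against 76.7, 64.3 and 47.9 with cycloheximide, and 83.5, 102 and 69.7 with 20E against 47.7, 49.2 and 42.0 with no hormone. Its ratios, 1.93 and 1.84, were near equal. CG33116, related to ethanolamine phosphotransferases of phospholipid synthesis, had 1.44 and 1.59 and was under 50 on 8 arrays.

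The remaining members with a known role were of other kinds. CG14073, an ankyrin repeat protein, read 41.8, 66.9 and 47.8 with 20E+cycloheximide against 24.2, 26.3 and 25.5 with cycloheximide, and 36.5, 46.9 and 42.4 with 20E against 24.1, 22.8 and 18.8 with no hormone. The hormone groups of this gene overlapped each other, and the probe set was dim, under 50 on 11 of 12 arrays. CG11737, which the RefSeq gene table also lists as TMEM135, a transmembrane protein, had ratios of 1.45 with cycloheximide and 2.40 without. CG11700 encodes a ubiquitin repeat protein nearly identical in sequence to other ubiquitin genes, and signal of those genes cannot be told apart from its own, so that its ratios of 1.54 and 1.99 are uncertain.

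CG11509 is listed by RefSeq as a synonym of br, the Broad-Complex, which encodes a set of zinc finger transcription factors and is a classical early gene of the 20E response. This probe set read 56.2, 72.5 and 53.4 with 20E+cycloheximide against 41.5, 39.2 and 43.8 with cycloheximide, and 46.9, 74.8 and 73.3 with 20E against 28.3, 26.5 and 41.9 with no hormone. Thus a member listed under a CG number measures a named gene. Of the 3 probe sets that carry the symbol br, 2 would have met the same limits, at ratios of 1.48 with cycloheximide and 2.52 without for the first and 1.42 and 1.70 for the other. The remaining br probe set had 1.32 and 1.13 and would not have met them, so the probe sets for this gene differed among themselves.

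For the other 17 members no role is given here. CG11034 had the second largest smaller ratio of all members and read 251, 365 and 278 with 20E+cycloheximide against 114, 134 and 119.9 with cycloheximide, and 248, 314 and 248 with 20E against 121, 121 and 122 with no hormone. The ranges of both its controls overlapped, with a log2 change of 0.01 (SE 0.13) with cycloheximide alone, and all 6 hormone arrays were above all 6 others. CG13116 read 343, 312 and 294 with 20E+cycloheximide against 154, 159 and 122 with cycloheximide, and 164, 279.8 and 224 with 20E against 102, 90.6 and 86.5 with no hormone. All of its 20E+cycloheximide arrays were above all of its 20E arrays. CG9801 read 80.8, 127 and 70.7 with 20E+cycloheximide against 54.9, 57.5 and 42.8 with cycloheximide, and 43.4, 70.8 and 47.0 with 20E against 34.8, 30.1 and 25.4 with no hormone. The 20E and cycloheximide arrays of this gene overlapped.

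CG3348 read 2092, 2669 and 2156 with 20E+cycloheximide against 1538, 1419.6 and 1137 with cycloheximide, and 1123, 1029 and 966 with 20E against 486, 456 and 608 with no hormone. In this gene each cycloheximide array without hormone was above each 20E array. CG4367 read 249, 472 and 284 with 20E+cycloheximide against 206, 241 and 180.2 with cycloheximide, and 329.9, 244 and 339 with 20E against 85.7, 104 and 84.1 with no hormone. With the drug its hormone arrays were only just clear of the control arrays, the lowest being 1.03 times the highest control, whereas without it the same quantity was 2.34. CG8501 read 384, 651 and 387 with 20E+cycloheximide against 319, 274 and 261 with cycloheximide, and 408, 609.5 and 435 with 20E against 240.1, 164 and 199 with no hormone. CG13252 read 214, 259 and 179 with 20E+cycloheximide against 156, 133 and 113 with cycloheximide, and 229, 289.8 and 222 with 20E against 127, 118 and 88.4 with no hormone. In both of these genes the second hormone array was the highest of its group. CG17834 read 40.8, 44.3 and 36.7 with 20E+cycloheximide against 26.3, 23.3 and 28.0 with cycloheximide, and 59.1, 64.8 and 53.7 with 20E against 28.3, 23.9 and 24.1 with no hormone. Both controls of CG17834 covered nearly the same range, while all 20E arrays were above all 20E+cycloheximide arrays. The other members without a given role, CG13227, CG13177, CG1943, CG9393, CG11686, CG2865, CG31224, CG10359 and CG11170, had ratios from 1.35 to 1.65 with cycloheximide and from 1.33 to 1.82 without.

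**Figure D2:**
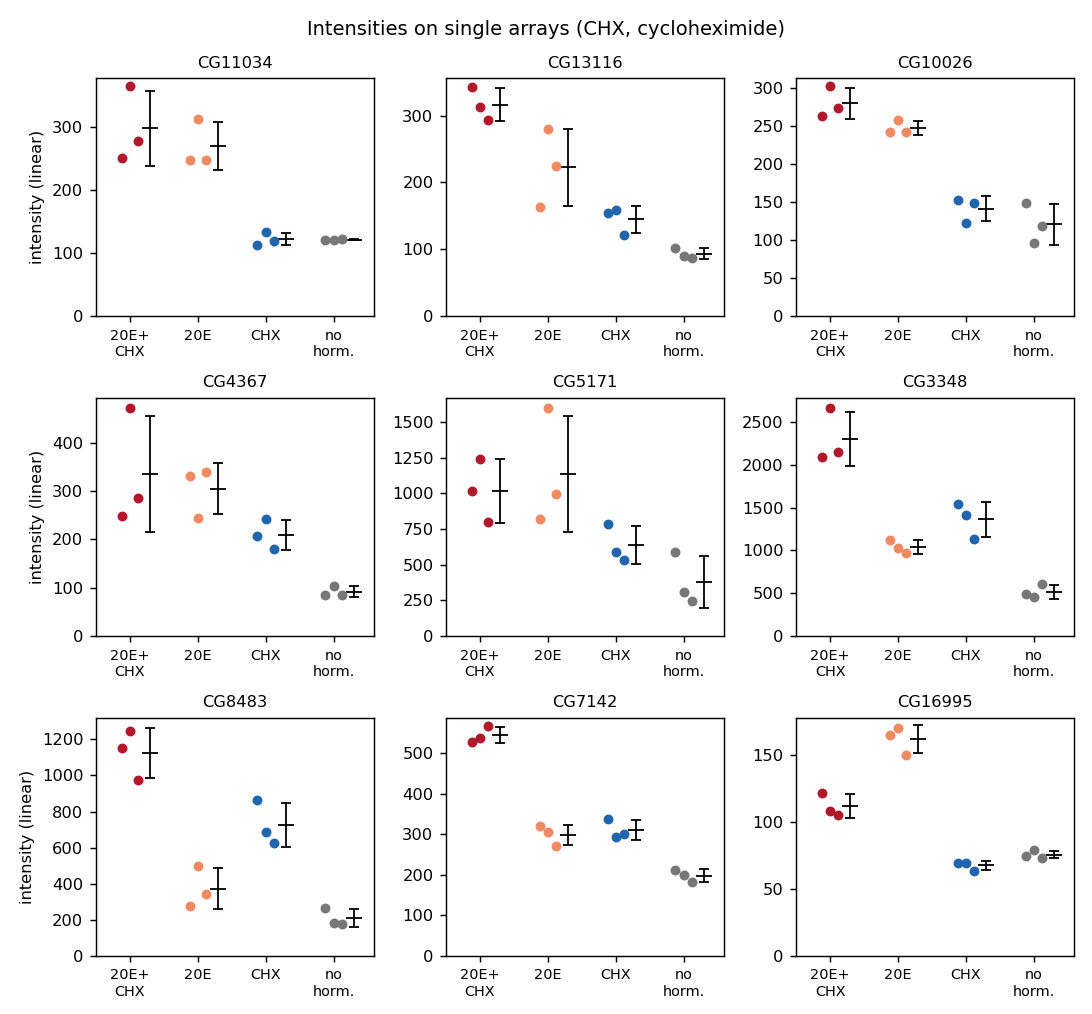
Linear intensity on each array for 9 members, with 20E+cycloheximide, 20E, cycloheximide (CHX) and no hormone from left to right; points are arrays, and the bar beside them gives the mean and SD of 3 arrays. CG11034 and CG10026 show 2 levels that follow the hormone, CG3348, CG8483 and CG7142 are highest with both agents, and CG16995 is highest with 20E alone.

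In both hormone groups the second array carried the highest values for most members. Of the 34 members, 28 (82.4%) were highest in their group on 20E+cycloheximide replicate 2, against 36.8% of all probe sets with a group mean of at least 50, and 28 were highest on 20E replicate 2, against 42.7%. The rule used these same arrays, which can favour genes with a high value on a second hormone array. The difference from all probe sets therefore tests nothing. The summed intensity of the members was 10758, 13371 and 10396 on the 20E+cycloheximide arrays, 8576, 10711 and 8611 on the 20E arrays, 7884, 7154 and 6507 on the cycloheximide arrays, and 5290, 4758 and 4462 on the arrays with no hormone. The sums of each hormone group were above those of its control, the 20E+cycloheximide and 20E sums overlapped, and the second hormone arrays were the highest within their groups. Listed genes of the 20E response were also highest there, with sums of 8481, 9792 and 9176 with 20E+cycloheximide and 5985, 7225 and 5915 with 20E. The 3 fat body markers matched by name were highest there too, with sums of 20341, 21122 and 18587 with 20E+cycloheximide and 19153, 21915 and 19189 with 20E, between 19884 and 22476 with cycloheximide and between 19801 and 21419 with no hormone. So were the 6 testis markers, with sums of 1909, 3497 and 2390 with 20E+cycloheximide and 2379, 3484 and 2730 with 20E, between 1980 and 3150 with cycloheximide and between 1938 and 2796 with no hormone. The lists for salivary gland, midgut, muscle, nervous system, imaginal disc and hemocyte were not highest on the second array of both hormone groups. The part of the fat body and testis lists in the values of the members was not tested. Leaving out 20E replicate 2 left 28 members within the limits, leaving out 20E+cycloheximide replicate 2 left 24, and leaving out both left 22. The 12 that were then lost were CG10140, CG10359, CG10444, CG11170, CG11686, CG14073, CG1943, CG31224, CG33116, CG4367, CG5805 and CG9393, while CG11034, CG13116, CG10026, CG31436, CG9801, CG3348, CG8501, CG16995 and CG13252 stayed within the limits.

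**Figure D3:**
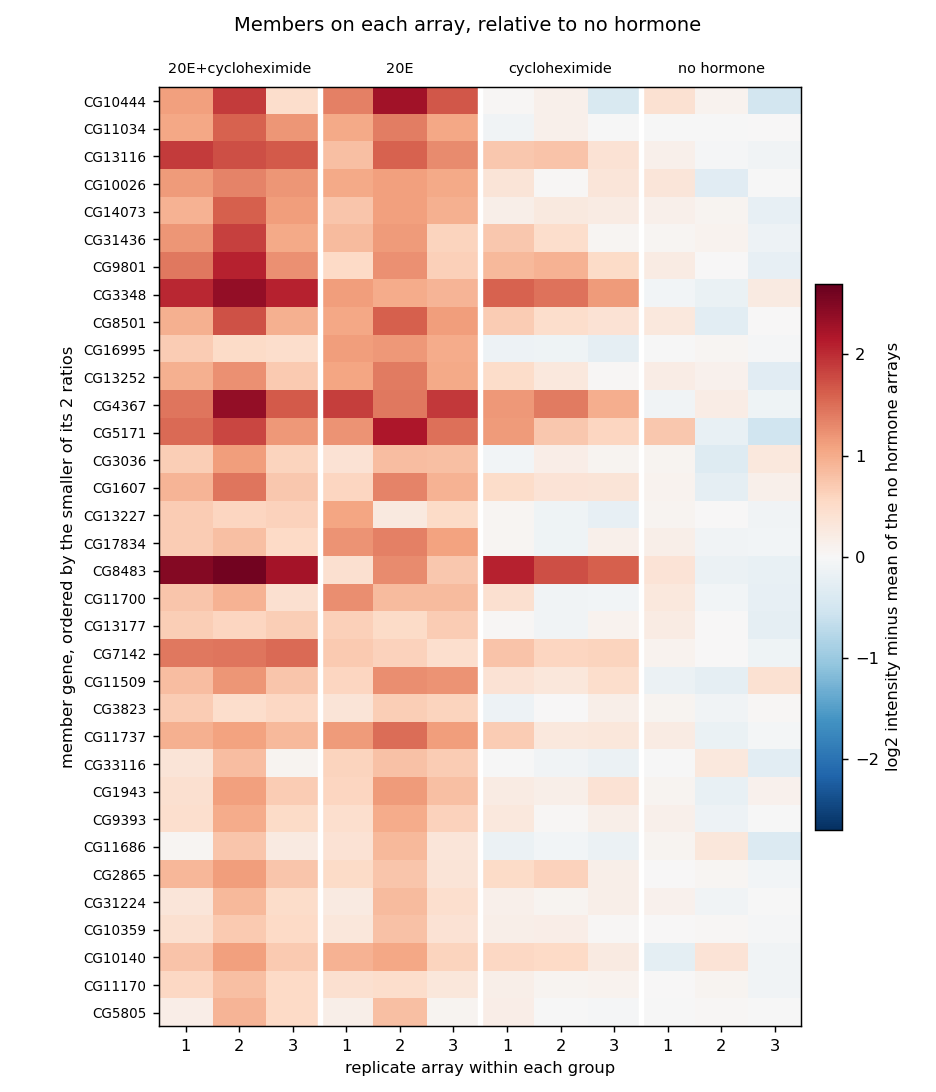
Log2 intensity of each of the 34 members on each of the 12 arrays, minus the mean of its no hormone arrays, with rows ordered by the smaller ratio and columns grouped as 20E+cycloheximide, 20E, cycloheximide and no hormone. The second array of both hormone groups is the darkest for most rows, and the cycloheximide block is dark for CG3348, CG4367 and CG8483.

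Whether the members moved with cycloheximide alone is a comparison that the rule did not use, although both of its groups entered the rule as the lower side. Most probe sets did not pass that rule, so the shares over all of them are not a like background. In cycloheximide organs 7 of 34 members were called higher than with no hormone and 0 lower, where 3.55% of all probe sets were called higher and 0.866% lower. An unadjusted limma p under 0.05 was found for 11 members. The share of all probe sets with such a p was not computed, so nothing is read from the 11. The median log2 change of the members was 0.23, against -0.03 over all probe sets, and 29 were above 0, against 41.2% of all. Cycloheximide arrays lay above all no hormone arrays for 13 members, against 12.1% of all probe sets, and below them for 1, against 15%.

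CG8483, the CAP gene, rose the most with cycloheximide alone, by 1.81 on the log2 scale (SE 0.21, limma adjusted p = 9.33e-04). CG3348 (1.40, SE 0.14, adjusted p = 4.17e-04), CG4367 (1.19, SE 0.21, adjusted p = 0.0109) and the protease CG7142 (0.65, SE 0.09, adjusted p = 0.00169) rose as well. These 4 genes were called under all alternative fits. CG9801 (0.78, SE 0.23, adjusted p = 0.0839), CG13116 (0.63, SE 0.17, adjusted p = 0.0572) and CG2865 (0.43, SE 0.13, adjusted p = 0.0970) also rose, but their adjusted p reached 0.904, 0.195 and 0.273 over the alternatives. With the replicate number as a block, the limma adjusted p were 0.0207, 0.0478 and 0.00812 in the same order of genes, and 9 members were called. This block fits 1 shared replicate effect to all 4 groups. No label states a pairing. Deviations of equally numbered arrays correlated for cycloheximide and no hormone, but mostly not for 20E+cycloheximide and cycloheximide, so these p-values are uncertain. CG9801, CG13116 and CG2865 all lost their calls when intensities under 50 were set to 50. The change of CG9801 then fell to 0.11. CG13116 and CG2865 had no array under 50 and kept their changes of 0.63 and 0.43, at limma adjusted p of 0.111 and 0.152. CG9801 also lost its call when cycloheximide replicate 1, 2 or 3, no hormone replicate 2 or 3, 20E replicate 3 or 20E+cycloheximide replicate 1 was left out. CG13116 lost its call without no hormone replicate 2 or 3 or cycloheximide replicate 1 or 2, and so did CG2865, which also lost it without no hormone replicate 1, 20E replicate 1 or 3, or 20E+cycloheximide replicate 1, or with only the 6 arrays compared. CG11737 (0.43, SE 0.14), CG5171 (0.83, SE 0.32), CG10140 (0.45, SE 0.17) and CG8501 (0.52, SE 0.22) had adjusted p from 0.114 to 0.198 and were not called. Of the 3 imaginal disc markers matched by name, only vg was called higher with cycloheximide alone (log2 change 0.96, limma adjusted p = 0.0095). Its group means were 83.5 with cycloheximide and 43.5 with no hormone. The brighter nub, at 542 and 456, changed by 0.25 (adjusted p = 0.0614) and was not called, its change being under the fold limit. For ap, at 85.2 and 85.4, the change was -0.004 (adjusted p = 0.982). The list, most of which was nub, summed to between 687 and 724 in cycloheximide organs and between 553 and 607 with no hormone. The part of the disc list in the changes of the members was not tested.

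**Figure D4:**
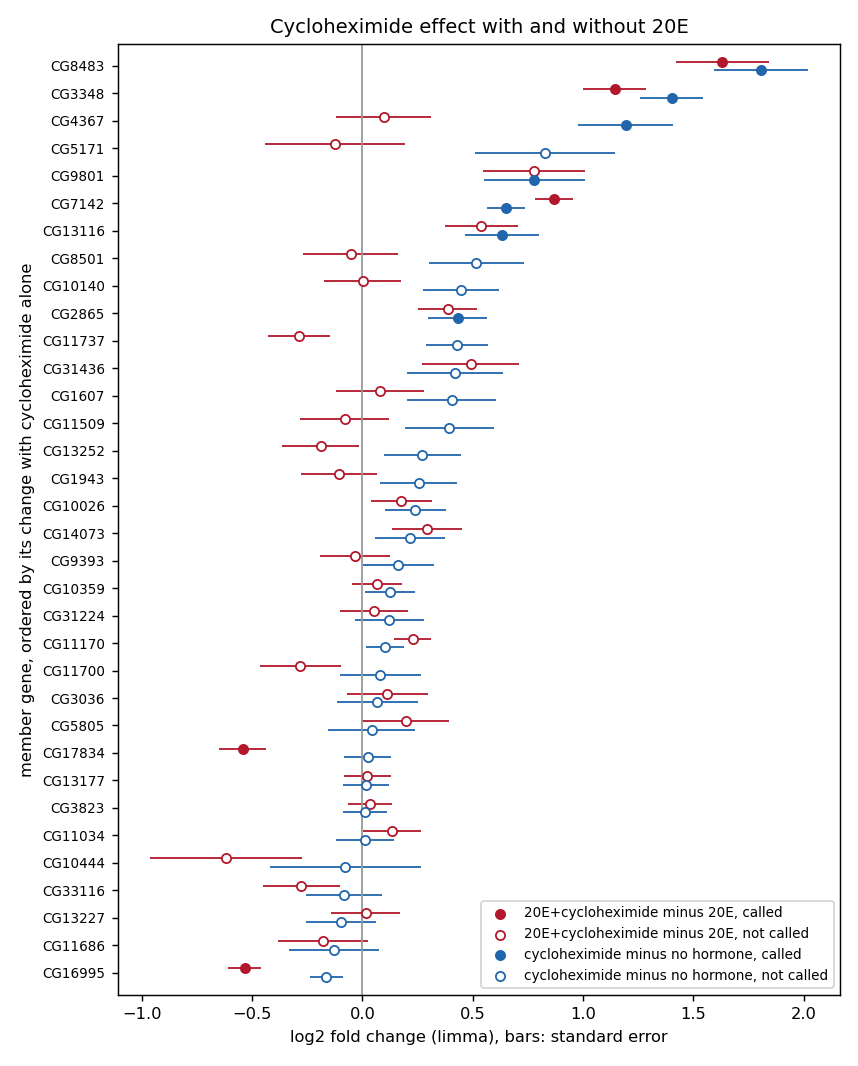
Log2 fold change of each of the 34 members, 20E+cycloheximide minus 20E in red and cycloheximide minus no hormone in blue, with bars for the standard error of the limma fit and filled points for calls. CG8483, CG3348 and CG7142 are filled in both colours on the right, whereas CG16995 and CG17834 are filled on the left in red only, at -0.53 and -0.54.

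In the presence of hormone most members were not called as changed with the drug, and those that were called went in both directions. The rule did not use this comparison, although both of its groups entered the rule as the higher side. In 20E+cycloheximide organs 3 of 34 members were called higher than in 20E organs and 2 lower, where 0.981% and 1.01% of all probe sets were. An unadjusted limma p under 0.05 was found for 10 members, again without a share of all probe sets, so nothing is read from it. The median log2 change was 0.04, against -0.01 over all probe sets. Arrays of 20E+cycloheximide lay above all 20E arrays for 7 members, against 8.64% of all probe sets, and below them for 3, against 9.32%. The genes that rose were again CG8483 (1.63, SE 0.21, limma adjusted p = 0.00296), CG3348 (1.14, SE 0.14, adjusted p = 0.00261) and CG7142 (0.87, SE 0.09, adjusted p = 4.41e-04). In these 3 genes the cycloheximide mean was also above the 20E mean, which was so for no other member. CG16995, the second CAP gene, fell by 0.53 (SE 0.08, adjusted p = 0.00516), and CG17834 fell by 0.54 (SE 0.11, adjusted p = 0.0305). The other single-gene probe set of CG17834 went the other way, with group means of 398 with 20E+cycloheximide and 357 with 20E. CG17834 was no longer called without 20E replicate 2 (adjusted p = 0.102) or without 20E+cycloheximide replicate 3 (adjusted p = 0.126), with only the 6 arrays compared (adjusted p = 0.112), or with intensities under 50 set to 50, where its change was -0.24. CG16995 and the 3 genes that rose were called under all alternative fits.

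The size of the 20E effect with and without the drug was compared by the interaction term of the same fit. Both effects entered the rule, which left out genes whose effect was lost or appeared only with the drug, so the values are a description of the list. The interaction was called for 0 of 34 members by limma, and 4 had an unadjusted p under 0.05; of all probe sets 0.0788% were called higher and 0.0573% lower, and nothing is read from the comparison. These were CG17834 with a difference of -0.57 on the log2 scale (SE 0.15), CG11737 with -0.72 (SE 0.20), CG4367 with -1.10 (SE 0.30) and CG16995 with -0.37 (SE 0.11), at adjusted p from 0.206 to 0.220. The fitted effect of 20E was the smaller in the presence of cycloheximide for each of these 4. On the other probe set of CG17834 the order was reversed, with ratios of 1.32 with cycloheximide and 1.18 without. Over the list the median difference was -0.13, and the range ran from -1.10 in CG4367 to 0.22 in CG7142. Without 20E+cycloheximide replicate 2, on which CG4367 read 472 against 249 and 284, CG4367 was called with a difference of -1.37 (SE 0.22, adjusted p = 0.0460) and CG17834 with -0.63 (SE 0.15, adjusted p = 0.0955). CG4367 then no longer met the limits for a member.

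For some members the array carries further probe sets, which the rule did not choose. Besides those of br given above, single-gene probe sets listed under the symbol of a member existed for 5 members, and none of these met the limits. For CG11700 the other probe set had ratios of 1.5 with cycloheximide, where its arrays overlapped, and 1.86 without, close to the 1.54 and 1.99 of the member. That of CG17834 had 1.32 and 1.18, against 1.57 and 2.33, and that of CG13252 had 1.16 and 1.23, against 1.62 and 2.22. For CG1607 it had 1.18 and 1.12, against 1.58 and 1.97, and for CG31224 it had 1.15 and 0.848, against 1.38 and 1.45. In each of the 5 genes the member probe set, chosen for its ratios, had the larger ratios of the pair. For CG17834 the member was the dimmer, with group means from 25.4 to 59.2 against 301 to 398. It was also the dimmer for CG1607, with 57.0 to 119 against 252 to 298. For the other genes of the 5 the ranges of the group means overlapped. A probe set shared by CG2865 and Grp170 had 1.05 and 0.889, and another shared by CG1607 and Tpi had 0.949 and 0.981.

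**Figure D5:**
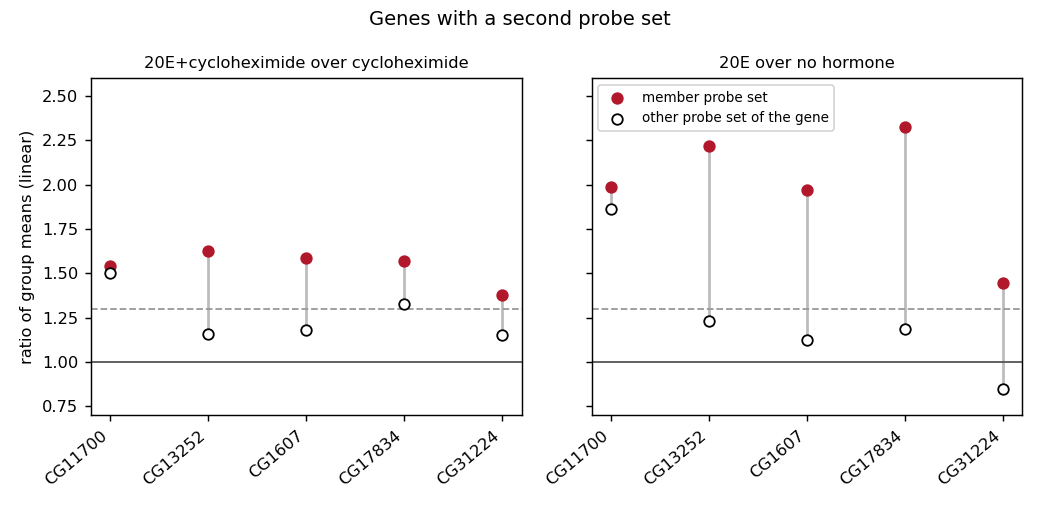
Ratio of group means, on a linear axis, for 5 members with another single-gene probe set, with 20E+cycloheximide over cycloheximide on the left and 20E over no hormone on the right; filled points are the member probe set and open points the other, and the dashed line marks 1.3. The open points lie below the filled ones in all 5 genes, nearly level for CG11700 and farthest apart for CG17834 on the right.

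Known genes of the 20E response served as a setting for these values. Of 31 listed genes, several of which the study itself selected on these arrays, 24 were matched by name to a single-gene probe set. Those without a match include E74, E75 and hairy, which the study lists as induced by 20E. For Hr46, the gene of DHR3, the probe set taken changed by 0.12 on the log2 scale with cycloheximide and -0.04 without. The study lists DHR3 as induced too, so the counts cover only part of the known response. With cycloheximide present, 11 of the 24 were called higher with 20E and 1 lower. Without it 13 were called higher and 1 lower, ftz-f1 being the gene lower in both. With cycloheximide alone 8 were called higher, and 8 were called higher in 20E+cycloheximide organs than in 20E organs. The interaction was called for 2, Blimp-1 and Cyp18a1, both with the larger effect of 20E in the presence of cycloheximide. Cyp18a1, a cytochrome P450 enzyme of 20E breakdown, had group means of 317 with 20E+cycloheximide, 113 with 20E, 35.6 with cycloheximide and 38.3 with no hormone. The zinc finger gene Blimp-1 had 513, 217, 163 and 172 in the same order of groups. In the order of protein-coding genes of the RefSeq annotation (assembly Release 6 plus ISO1 MT), CG11170 was next to CG11275, the gene left out of the list, and 2 genes stood between CG8483 and CG11686.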

How the data were processed

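Per the labels and the methods, the authors hybridized RNA of each culture to 1 array and normalized the arrays with dChip. The deposited values are linear intensities, 1 per probe set and array, without detection calls; the genome build is not given in the sources used here. Genes were taken from the platform annotation: 12442 probe sets had 1 gene, 327 several and 1197 none, and 33 of 34 member identifiers matched RefSeq. The members and all gene lists were chosen with earlier results of these data known. Genes given on each array were the 12 members with the largest smaller ratio and up to 6 called each way in each other comparison. Genes next to the limits, with several probe sets or next to each other were also named. CG5171 and CG11509 were added after their values were seen. Promoters were not analysed here.

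Intensities under 10 (636 values) were set to 10 and converted to log2. The 4 groups were fitted together with limma 3.58.1 in R 4.3.3 (eBayes with trend). Two-sided p-values were adjusted by Benjamini-Hochberg over 13966 probe sets, and calls required an adjusted p under 0.10 and at least 1.3-fold, with no fold limit for the interaction. The model was tested on simulated data. Replicates of a group shared between 2 and 8 identical values and correlated at 0.983 to 0.993 across probe sets. No label states that equal numbers pair the arrays, so a pairing is inferred only from correlations. Deviations from the group means of equally numbered arrays correlated at 0.41, 0.21 and 0.29 for cycloheximide and no hormone. The highest values with another number were -0.07, 0.12 and -0.14. For 20E+cycloheximide and 20E, equal numbers gave 0.39, 0.55 and 0.09, and the highest values with another number were -0.05, -0.04 and 0.23. Equal numbers gave -0.03, 0.11 and 0.36 for 20E and no hormone, and 0.03, -0.12 and 0.27 for 20E+cycloheximide and cycloheximide. The alternatives were other floors, offsets, normalizations, filters, limits, fits and a replicate block, and each array left out.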

Additional observations from a re-analysis of the deposited data

How the results depend on the processing

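The 7 members called with cycloheximide alone and the 5 called in 20E+cycloheximide minus 20E kept their direction under all alternatives run; changes of other single members were not followed through all of them. The counts moved as follows. The number of members was 21 with ratios of at least 1.5 and 22 without both second hormone arrays, a setting chosen after seeing the data, and ranged from 24 to 46 when each array was left out in turn. With intensities under 50 set to 50, 14 members were called in 20E minus no hormone and 4 in cycloheximide minus no hormone, and 4 with cycloheximide alone at an adjusted p under 0.05. Leaving out single arrays gave 15 to 32 calls for 20E minus no hormone (15 without 20E replicate 2, 16 without no hormone replicate 2), 10 to 16 for 20E+cycloheximide minus cycloheximide, 4 to 9 for cycloheximide minus no hormone (4 without no hormone replicate 3, cycloheximide replicate 1 or cycloheximide replicate 2), 4 to 6 for 20E+cycloheximide minus 20E, and 0 to 2 for the interaction (2 without 20E+cycloheximide replicate 2, and 1, CG4367, without both second hormone arrays). The median change with cycloheximide alone then ranged from 0.15 to 0.29 and that of the interaction from -0.25 to -0.04. The replicate number was also fitted as a block shared by all 4 groups. In 20E+cycloheximide minus cycloheximide, where equally numbered arrays mostly did not correlate, 20 members were then called, against 13 without the block. In cycloheximide minus no hormone, where they did, the block gave 9 calls against 7. In 20E+cycloheximide minus 20E, where they did so only in part, it gave 7 calls, 5 higher and 2 lower, against 5. The causes were not tested. Dim members, 11 of which had an array under 50, have the least certain ratios.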
